A study of Mus musculus with 16 samples.

Results

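The 40 genes described here encode the subunits of the voltage-gated sodium and calcium channels of the mouse. They were chosen by symbol alone, as every Scn gene for a sodium channel alpha or beta subunit and every Cacna1, Cacna2d, Cacnb and Cacng gene for a calcium channel subunit, and 40 of the 55487 symbols in the deposited matrix matched. By role they are 10 sodium channel alpha subunits, 4 sodium channel beta subunits, 10 calcium channel alpha1 subunits, 4 alpha2delta subunits, 4 calcium channel beta subunits and 8 gamma subunits.

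Alpha and alpha1 subunits form the pore and sense the membrane voltage, and the other subunits set how much channel reaches the membrane and how fast it opens and closes. Sodium channels at the axon initial segment and the nodes of Ranvier carry the action potential, while calcium channels turn depolarisation into transmitter release, dendritic signals and, in blood vessels, contraction. Several gamma subunits are better known as partners that traffic and tune AMPA-type glutamate receptors than as parts of calcium channels.

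Cells were dissociated from the spinal cord around a C5 dorsal column lesion with pronase and actinomycin D, dead cells were removed, and 1 10x Genomics 3′ library was made per mouse. There were 8 groups of 2 mice, 16 mice in all, aged 8 to 10 weeks. The control genotype, called WT here, was Ryk+/+,GFAPcreERT2, and the conditional knockout (cKO) was Rykfl/fl,GFAPcreERT2, so that both carried the tamoxifen-inducible Cre under the GFAP promoter. Each genotype was taken 1 d, 7 d or 14 d past the lesion, and also without a lesion, a group that the labels call Sham and the paper calls uninjured.

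Ryk, the receptor that is deleted, was counted in both genotypes. In Cluster 7 astrocytes it was at 123, 138, 129, 239, 147, 152 and 139 CPM (UMIs of the gene scaled to the total of all UMIs of the cluster in that mouse) in the 7 WT mice and at 78.3, 192, 36.1, 117, 56.1, 138, 165 and 153 CPM in the 8 cKO mice. These values overlapped, and they do not check the genotypes, because the counted 3′ ends need not come from the exons that Cre removes.

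Several features of the libraries bear on every value given here. The 18203 cells came almost wholly from 15 mice, with 536263 to 9008729 UMIs (unique molecular identifiers, which stand for single captured RNA molecules) each, because WT 1 d replicate 2 held 1 cell, with 266 UMIs and 0 UMIs of the 40 genes. WT at 1 d is therefore 1 mouse, whose spread the tests borrow from the rest, and it had 18 neurons with 7570 UMIs. The replicate 1 libraries of both genotypes at 1 d and 7 d were shallow, with a median of 414 to 548 UMIs per cell against 1040.5 to 3637 in the other 11 mice. The same 4 libraries shared 119 cell barcodes among themselves, 28 to 115 in each of their 6 pairs, whereas any other pair of libraries shared at most 4. Of their 5237 cells, 358 (6.84%) carried a shared barcode, and of all 166 shared barcodes 0 had identical counts in the libraries that shared them. The cell names gave another condition than the sample labels for 6 mice of replicate 2. Batch and replicate number are the same thing in the cell table.

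The 17 clusters are those of the authors, and their names were compared with lists of marker genes. Cluster 2, annotated as astrocytes, was highest for 0 of 5 astrocyte markers (summed level 5222 ± 1658 CPM, SD, n = 11, lowest 1313 and highest 7007, most abundant Slc1a2, 0 markers at 0) but for the neuronal markers Snap25 and Stmn2 and the oligodendrocyte marker Mbp (12076 CPM). Its oligodendrocyte markers summed to 17089 ± 8475 CPM (SD, n = 11) and its neuronal markers to 1630.1 ± 698 CPM (SD, n = 11). It is called by its number alone. Cluster 13, annotated as unknown, was highest for 5 of 5 ependymal markers (3434 ± 1240.3 CPM, SD, n = 10, most abundant Tmem212), and is called the ependymal cluster. The neuron cluster was highest for 3 of 5 neuronal markers (Rbfox3, Syt1 and Meg3), with a summed level of 12237 ± 6389 CPM (SD, n = 15) of which Meg3 made up the most. Oligodendrocyte precursor cells (OPCs) were highest for 4 of their 5 markers, and pericytes with smooth muscle cells, Cluster 6 microglia, endothelial cells and Schwann cells each for 5 of 5. Of the 5 oligodendrocyte markers, 4 were highest in Cluster 8, Mbp in Cluster 2 and 0 in Cluster 4.

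All 40 channel genes had at least 1 UMI. Their totals ran from 1 UMI for Cacng6, which encodes a skeletal muscle gamma subunit, to 12334 for Cacna1a, with a median of 680, 8 genes under 100 and 89897 UMIs in all. Levels across clusters are a description without a test, since the cells were clustered on these very counts. They are means over the mice with at least 10 cells in the cluster. By that mean, 21 of the 40 were highest in neurons and 19 in another cluster. By role, neurons were the highest cluster for 7 of 10 sodium alpha, 2 of 4 sodium beta, 6 of 10 alpha1, 3 of 4 alpha2delta, 0 of 4 calcium beta and 3 of 8 gamma subunits. Elsewhere, OPCs, Cluster 2 and Cluster 4 oligodendrocytes were each highest for 3 members. Without the 4 shallow libraries 20 members were highest in neurons, and without the cells that share a barcode 22 were. With all cells thinned to 1000 UMIs the number was 16, and 11 members had another highest cluster.

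The 40 genes made up 5459.9 ± 1668 CPM of the neuronal UMIs (SD, n = 15, lowest 2536 and highest 8725). The sums were 3036 ± 593 CPM in OPCs (SD, n = 14) and 2421 ± 634 CPM in pericytes (SD, n = 15). The OPC mean thus lay within the range of the neurons of single mice and the pericyte mean just below it. In endothelial cells the sum was 400 ± 94.9 CPM (SD, n = 15), and its highest mouse, at 684 CPM, lay below the lowest neuronal value.

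**Figure D1:**
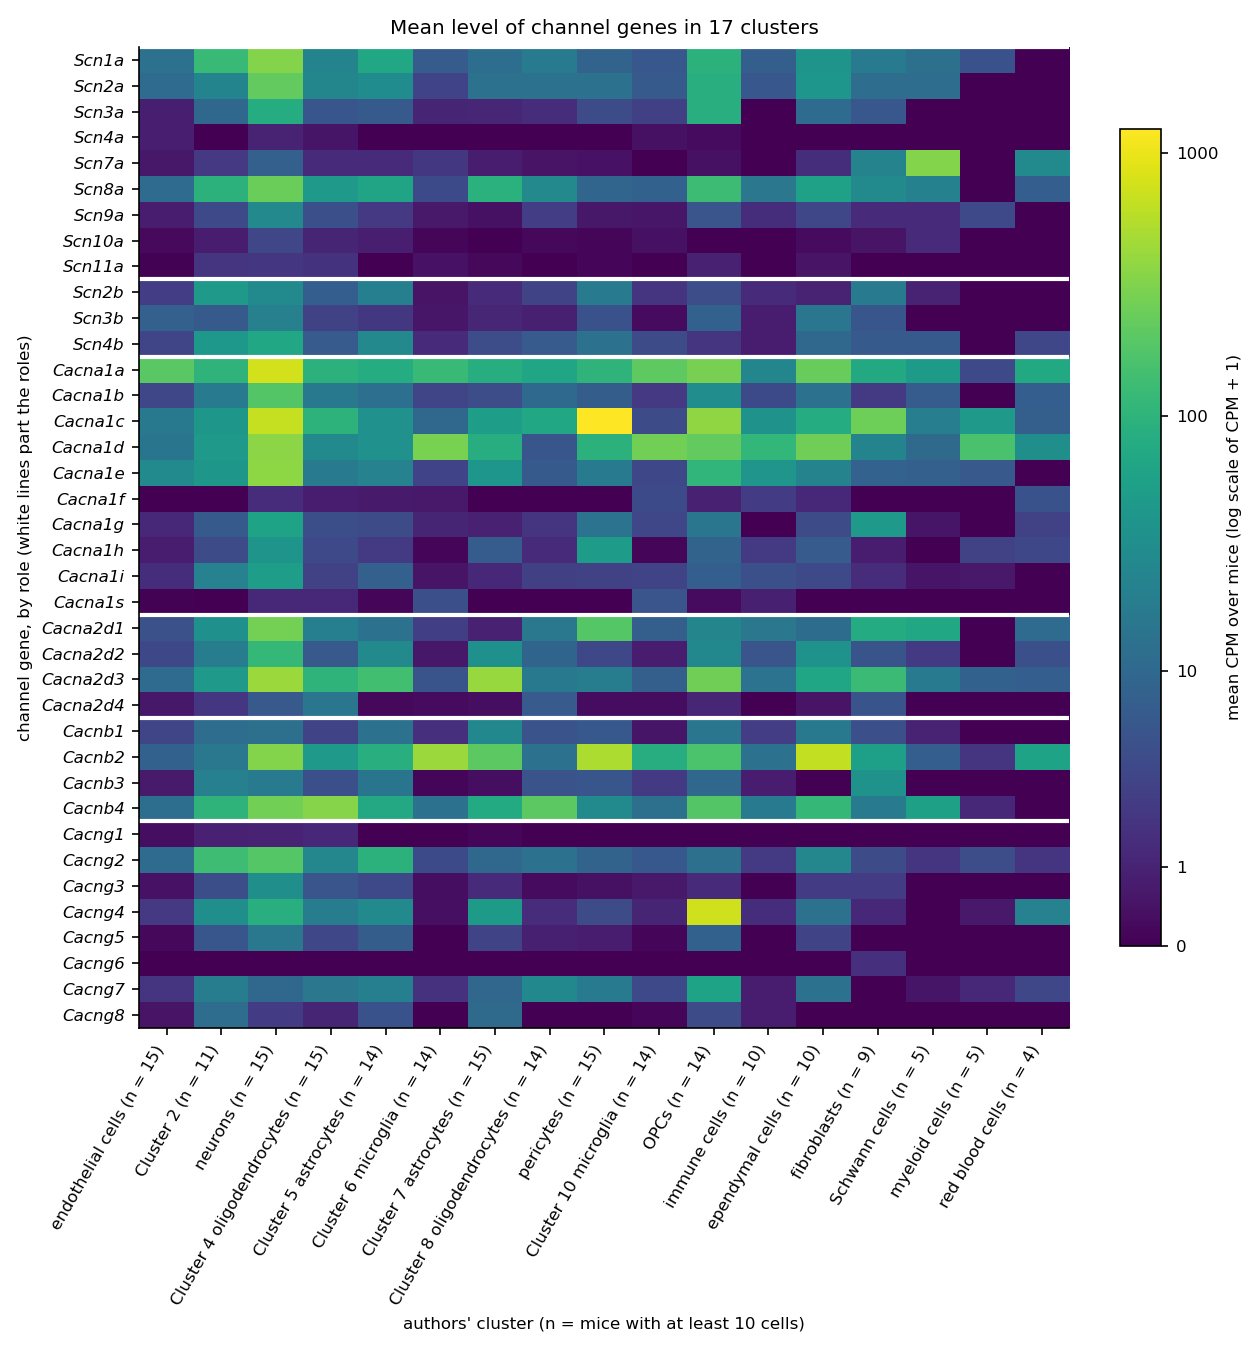
Mean level of channel genes (vertical axis, grouped by role) in the 17 clusters (horizontal axis, with the number of mice), as CPM on a log scale of CPM + 1. Neurons hold the highest mean for 21 genes, while Cacna1c is highest in pericytes at 1239 CPM, Cacng4 in OPCs at 747 CPM and Scn7a in Schwann cells at 330 CPM.

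Among the sodium channel alpha subunits, Scn1a, Scn8a and Scn2a had the highest neuronal levels. Scn1a encodes a pore prominent in the axons of fast-spiking inhibitory neurons. It had 333 ± 108 CPM in neurons (SD, n = 15), with 132, 343 and 573 CPM in the lowest, median and highest mouse, and neurons were its highest cluster in 15 of 15 mice. Cluster 2 came next at 122 ± 65.6 CPM (SD, n = 11). Scn8a, the main sodium channel of mature nodes of Ranvier and axon initial segments, had 247 ± 88.6 CPM in neurons (SD, n = 15; 0, 254 and 353 CPM), above OPCs (131 ± 68.3 CPM, SD, n = 14) in 13 of 14 mice. Scn2a, a sodium channel of unmyelinated axons and of initial segments, had 224 ± 134 CPM in neurons (SD, n = 15; 44.6, 173 and 556 CPM) and 89.5 ± 55.4 CPM in OPCs (SD, n = 14), and neurons exceeded OPCs in 14 of 14 mice. OPCs were thus the second cluster for both Scn8a and Scn2a.

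Scn3a, known for its expression in the embryonic nervous system, did not differ between OPCs and neurons beyond the spread of the mice. It had 85.5 ± 46.4 CPM in OPCs (SD, n = 14; lowest 0, median 99.8, highest 160 CPM) and 80.6 ± 47.5 CPM in neurons (SD, n = 15), with OPCs above neurons in 7 of 14 mice. Without the cells that share a barcode, the means were 82.6 CPM in OPCs and 83.9 CPM in neurons, so that the order turned. The sensory neuron channel Scn9a was highest in neurons at 27.8 ± 21.2 CPM (SD, n = 15). The other sensory neuron channels Scn10a (51 UMIs in neurons) and Scn11a (36 UMIs) and the skeletal muscle channel Scn4a (11 UMIs) were at 3.56 CPM or less in neurons on average.

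Scn7a stood apart from the other sodium channels in place. It encodes an atypical channel that responds to extracellular sodium rather than to voltage, and 397 of its 660 UMIs lay in Schwann cells. There the level was 210 CPM in cKO 1 d replicate 2, 0 CPM in WT 7 d replicate 1, 582 CPM in cKO 7 d replicate 2, 382 CPM in WT 14 d replicate 1 and 477 CPM in cKO 14 d replicate 1, a mean of 330 ± 230 CPM (SD, n = 5). In 4 of these 5 mice Schwann cells were its highest cluster. No uninjured mouse had 10 Schwann cells, so that there was no uninjured value. Red blood cells came next at 28.7 CPM with 1 UMI in all, fibroblasts had 23.2 ± 42.3 CPM (SD, n = 9), and neurons had 7.89 ± 7.11 CPM (SD, n = 15), so that the mouse at 0 CPM lay inside the range of those clusters and the other 4 above it. Without the 4 shallow libraries, which include that mouse, the Schwann cell mean was 413 CPM. With at least 30 cells per mouse and cluster, fibroblasts were the highest cluster of Scn7a instead. Only cKO 7 d replicate 2, with 103, had that many Schwann cells.

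Of the sodium channel beta subunits, single-span proteins that also act in cell adhesion, Scn2b was highest in Cluster 2 and Scn3b and Scn4b in neurons. Scn2b, which is bound to the alpha subunit by a disulfide bond, had 44.6 ± 38.9 CPM in Cluster 2 (SD, n = 11) and 29.5 ± 20.3 CPM in neurons (SD, n = 15), with Cluster 2 above neurons in 6 of 11 mice. The clusters thus overlapped between mice. Scn4b, also disulfide-bound and known for its part in resurgent sodium current, had 69.9 ± 64.7 CPM in neurons (SD, n = 15; 0, 45.2 and 264 CPM) and 43.8 ± 36.6 CPM in Cluster 2 (SD, n = 11), with neurons above Cluster 2 in 6 of 11 mice and highest of all clusters in 7 of 15. Its value of 264 CPM came from 2 UMIs. Scn3b had 127 UMIs in neurons and 21.3 ± 20.7 CPM (SD, n = 15). Without the shallow libraries its mean was 15.4 CPM in neurons and 20.7 CPM in the ependymal cluster. Cluster 2 was also the cluster with the most mitochondrial RNA, at 124661 CPM against 33379.8 CPM in neurons, and it had 5439 CPM of the nuclear RNA Malat1 against 23103 CPM. The part of RNA quality in the place of Scn2b was not tested.

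The calcium channel alpha1 subunits divided between neurons and vascular or glial cells. Cacna1a, the pore of the P/Q-type channel that triggers transmitter release, had 764 ± 323 CPM in neurons (SD, n = 15; 167, 797 and 1369 CPM) and 286 ± 64.8 CPM in OPCs (SD, n = 14), and neurons were above OPCs in 13 of 14 mice. Cacna1e, the R-type pore, was highest in neurons in 15 of 15 mice at 373 ± 216 CPM (SD, n = 15; 113, 321 and 892 CPM). So was Cacna1b, the N-type pore of presynaptic terminals, at 185 ± 55.7 CPM (SD, n = 15; 88.5, 193 and 299 CPM) against 31.9 ± 18.1 CPM in OPCs (SD, n = 14), and 78.1% of its UMIs lay in neurons. Neurons held 66.1% of the Cacna1e UMIs and 46.6% of the Cacna1a UMIs, and OPCs, the second cluster, had 108 ± 47.6 CPM of Cacna1e (SD, n = 14). Neurons were thus the highest cluster for these 3 pores in nearly every mouse, although most Cacna1a UMIs lay in other clusters.

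Cacna1c, the L-type pore that drives contraction of vascular smooth muscle, was highest in pericytes. It had 1239 ± 394 CPM there (SD, n = 15; lowest 575, median 1301, highest 1892 CPM) and 670 ± 233 CPM in neurons (SD, n = 15; 211, 676 and 1091 CPM), and pericytes were above neurons in 14 of 15 mice. The ranges of the clusters overlapped, although the order held within nearly every mouse. OPCs had 378 ± 104 CPM (SD, n = 14) and fibroblasts 255 ± 160 CPM (SD, n = 9). Cacna1h, the pore of a T-type channel, which opens at voltages near rest, was highest in pericytes too, at 49.0 ± 24.5 CPM (SD, n = 15) against 38.4 ± 25.8 CPM in neurons (SD, n = 15), and pericytes were higher in 11 of 15 mice. The other T-type pores, Cacna1g and Cacna1i, were highest in neurons, at 60.5 ± 35.9 and 53.9 ± 31.9 CPM (SD, n = 15).

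Cacna1d, an L-type pore that opens at more negative voltages than Cacna1c, had similar means in neurons and microglia. They were 359 ± 222 CPM in neurons (SD, n = 15; 123, 311 and 848 CPM), 299 ± 110 CPM in Cluster 6 microglia (SD, n = 14; 31.6, 323 and 467 CPM), 269 ± 117 CPM in Cluster 10 microglia (SD, n = 14) and 264 ± 97.4 CPM in the ependymal cluster (SD, n = 10). Neurons were above Cluster 6 in 7 of 14 mice, and with cells thinned to 1000 UMIs the means were 259 and 279 CPM, so that the order of neurons and Cluster 6 turned. Without the shallow libraries they were 275 and 257 CPM. Cacna1s, the voltage sensor of skeletal muscle, had 70 UMIs, of which 22 lay in Cluster 10 microglia at 5.58 ± 8.47 CPM (SD, n = 14), and Cacna1f, the retinal L-type pore, had 45 UMIs.

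Of the alpha2delta subunits, extracellular proteins that raise the number of channels at the membrane, Cacna2d1, Cacna2d2 and Cacna2d3 were highest in neurons. Cacna2d3 had 422 ± 213 CPM in neurons (SD, n = 15; 132, 395 and 941 CPM) and 411 ± 80.9 CPM in Cluster 7 astrocytes (SD, n = 15; 319, 421 and 613 CPM). These means did not differ beyond the spread of the mice, and neurons were higher in 9 of 15 mice. With pooled UMIs (416 against 411 CPM) and with thinned cells (434 against 354 CPM) Cluster 7 was the higher. The other main astrocyte cluster, Cluster 5, had 144 ± 181 CPM of Cacna2d3 (SD, n = 14; 27.7, 64.3 and 642 CPM), so that most of its mice lay below every mouse of Cluster 7. Cacna2d1, a binding site of gabapentin, had 277 ± 167 CPM in neurons (SD, n = 15; 114, 213 and 714 CPM) and 190 ± 67.3 CPM in pericytes (SD, n = 15). With thinned cells pericytes had the higher mean, 222 against 204 CPM. Cacna2d2, another gabapentin-binding subunit, had 115 ± 65.5 CPM in neurons (SD, n = 15). Cacna2d4, best known from the retina, was highest in Cluster 4 oligodendrocytes at 15.5 ± 12.4 CPM (SD, n = 15), with 93 UMIs there.

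The calcium channel beta subunits, cytosolic proteins that bind the alpha1 subunit and take it to the membrane, had 0 of 4 members highest in neurons. Cacnb2, a frequent partner of L-type channels, had 637 ± 205 CPM in the ependymal cluster (SD, n = 10; 352, 574 and 990 CPM), 520 ± 228 CPM in pericytes (SD, n = 15), 427 ± 163 CPM in Cluster 6 microglia (SD, n = 14; 188, 460 and 635 CPM) and 326 ± 174 CPM in neurons (SD, n = 15). Cluster 10 microglia had 82.9 ± 191 CPM (SD, n = 14; 0, 29.0 and 739 CPM), so that the ranges of the microglial clusters overlapped through 1 mouse of Cluster 10 and its other 13 mice lay below every mouse of Cluster 6. Cacnb4 had 343 ± 237 CPM in Cluster 4 oligodendrocytes (SD, n = 15; 76.4, 284 and 972 CPM) and 271 ± 113 CPM in neurons (SD, n = 15), with Cluster 4 higher in 8 of 15 mice. Cacnb1 was highest in Cluster 7 astrocytes at 27.1 ± 15.9 CPM (SD, n = 15), but in the ependymal cluster with thinned cells (26.6 against 24.9 CPM) and with at least 30 cells per mouse (31.5 against 27.2 CPM), and Cacnb3 in fibroblasts at 38.2 ± 57.1 CPM (SD, n = 9), where WT 1 d replicate 1, a shallow library, had 184 CPM. Without the shallow libraries the Cacnb3 mean in fibroblasts was 26.6 CPM. With pooled UMIs Cluster 5 had its highest level (20.7 against 19.4 CPM in fibroblasts), and with at least 30 cells per mouse Cluster 2 did (25.8 against 22.4 CPM), so that the places of Cacnb1 and Cacnb3 were not settled.

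Among the gamma subunits, Cacng4 set OPCs apart from all other clusters. It encodes an AMPA receptor partner and had 747 ± 125 CPM in OPCs (SD, n = 14; lowest 537, median 798, highest 932 CPM) against 87.8 ± 39.2 CPM in neurons (SD, n = 15; highest 150 CPM). The lowest OPC value lay above the highest value of neurons, and OPCs were highest in 14 of 14 mice. OPCs held 1420 and neurons 670 of its 2738 UMIs. Cacng7, another AMPA receptor partner, was also highest in OPCs at 60.8 ± 46.8 CPM (SD, n = 14). Cacng2, the subunit mutated in the stargazer mouse, had 191 ± 43.4 CPM in neurons (SD, n = 15; 128, 189 and 264 CPM) and 134 ± 76.0 CPM in Cluster 2 (SD, n = 11). Cacng3 had 33.5 ± 24.5 CPM in neurons (SD, n = 15), with 79.5% of its UMIs there. Cacng5 (172 UMIs), Cacng8 (85 UMIs), the skeletal muscle subunit Cacng1 (21 UMIs) and Cacng6 (1 UMI) had a mean of 16.5 CPM or less in each cluster.

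**Figure D2:**
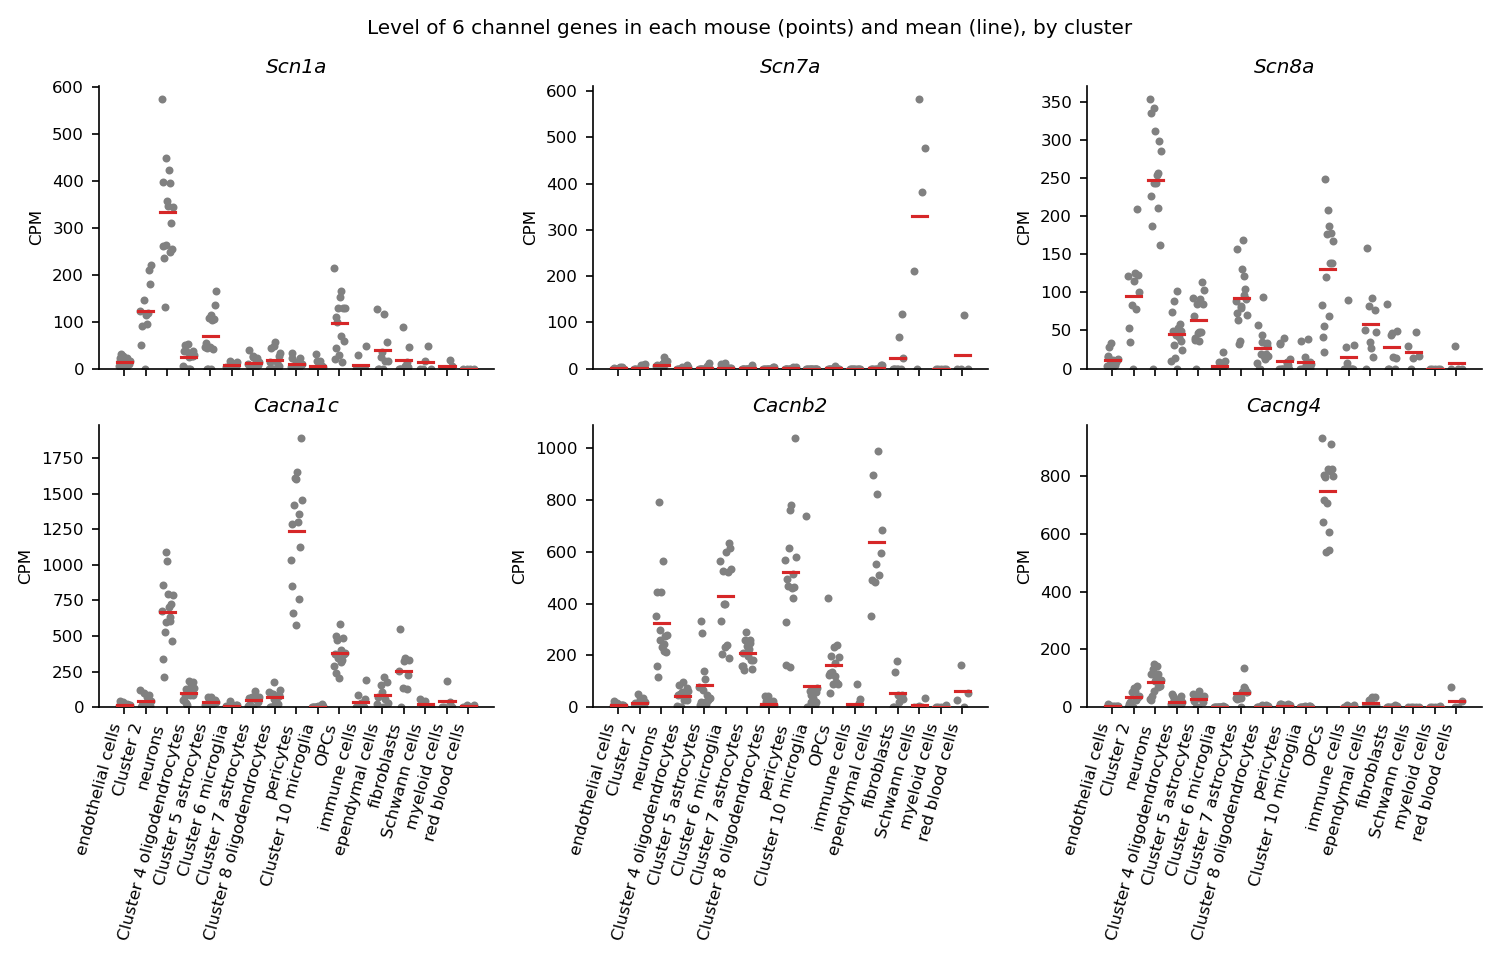
Level of 6 channel genes in each mouse with at least 10 cells of the cluster (points, CPM) by cluster, with the mean over mice (red line). The OPC values of Cacng4, 537 to 932 CPM, lie above those of all other clusters, while pericytes and neurons overlap for Cacna1c, at 575 to 1892 and 211 to 1091 CPM.

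The members also share features of their genes. In the GENCODE annotation of GRCm38 they lie on 12 chromosomes, 8 of them on chromosome 2, and span 10.5 to 817 kb with a median of 105 kb, 20 of them over 100 kb. Scn3a, Scn2a, Scn1a, Scn9a and Scn7a lie in that order between positions 65457118 and 66784914 of chromosome 2, yet Scn1a, Scn2a and Scn9a were highest in neurons and Scn7a in Schwann cells, while Scn3a had similar means in OPCs and neurons. Scn2b and Scn4b lie near each other on chromosome 9, and Cacng1, Cacng4 and Cacng5 on chromosome 11, of which Cacng4 alone was highest in OPCs. The reference table (RefSeq, GRCm38.p6) held 41 start windows for 30 of the 40 members, here taken as the 250 bases before the start that RefSeq gives. By the GENCODE positions 25 of these windows lay wholly inside the gene, 7 in part and 9 outside it. They were searched on both strands for 4 motifs: GGGCGG (the GC box), CAGCTG (an E-box), CCAAT and TATAAA. The shares of member windows with a match were 36.6%, 26.8%, 24.4% and 4.88%, and the shares of all 32851 windows were 32.7%, 13%, 33.8% and 12.4%, in that order. The windows of 3 neighbours on chromosome 2 that share a strand, highest in neurons (Scn1a and Scn9a) or in Schwann cells (Scn7a), and that of Scn4b, the member called in neurons at 14 d, read 5′ to 3′ along each gene's strand. Capitals mark a match on either strand, and Scn9a had none of the 4. Of the Scn4b window, 229 bases lie inside the GENCODE gene, which begins at position 45138395. A match is a description and not a binding site.
Scn1a, chr2:66440838-66441087, minus strand: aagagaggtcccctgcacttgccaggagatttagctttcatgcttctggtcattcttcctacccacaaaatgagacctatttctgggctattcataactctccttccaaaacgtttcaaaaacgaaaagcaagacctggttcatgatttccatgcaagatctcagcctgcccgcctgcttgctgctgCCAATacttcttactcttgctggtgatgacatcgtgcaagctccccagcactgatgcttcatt
Scn9a, chr2:66634963-66635212, minus strand: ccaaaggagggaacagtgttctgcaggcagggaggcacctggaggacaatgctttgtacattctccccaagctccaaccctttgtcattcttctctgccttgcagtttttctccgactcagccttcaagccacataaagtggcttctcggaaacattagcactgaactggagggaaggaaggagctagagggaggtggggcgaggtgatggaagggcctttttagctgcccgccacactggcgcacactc
Scn7a, chr2:66784911-66785160, minus strand: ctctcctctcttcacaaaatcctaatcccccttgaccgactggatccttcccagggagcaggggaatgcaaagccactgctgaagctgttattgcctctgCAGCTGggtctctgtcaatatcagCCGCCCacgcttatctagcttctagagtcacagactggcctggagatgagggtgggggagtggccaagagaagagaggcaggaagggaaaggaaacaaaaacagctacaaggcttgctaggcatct
Scn4b, chr9:45138374-45138623, plus strand: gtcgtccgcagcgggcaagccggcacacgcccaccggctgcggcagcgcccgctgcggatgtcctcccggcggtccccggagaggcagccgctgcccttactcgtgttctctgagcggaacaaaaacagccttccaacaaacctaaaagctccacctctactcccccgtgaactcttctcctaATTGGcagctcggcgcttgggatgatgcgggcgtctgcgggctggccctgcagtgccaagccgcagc

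The neuron cluster is not uniform for these genes. The deposited cell table also holds a first clustering, in which Cluster 2 had 2527 cells. Of these, 1213 are in Cluster 2 in the final table, 1155 in endothelial cells and 159 in neurons, and 0 cells moved between other clusters. The 159 make up 6.4% of the 2486 neurons and are called reassigned here. In 7 mice that had at least 10 of them, they were compared with the other neurons of the same mouse, as a description without a test.

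Scn1a, Scn8a, Scn2b and Scn4b were higher in the reassigned cells. Scn4b had 414 ± 321 CPM in reassigned (126 to 888 CPM) and 34.2 ± 16.6 CPM in the other neurons (SD, n = 7; 7 of 7 mice), and Scn1a 716 ± 267 CPM (435 to 1114 CPM) against 246 ± 48.9 CPM (SD, n = 7; 7 of 7 mice). Scn8a was higher in 6 of 7 mice (542 against 208 CPM), as was Scn2b (119 against 21.9 CPM). By contrast, Scn2a was higher in 1 of 7 mice (113 against 164 CPM), so the sodium channels did not share a direction.

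Several calcium channel genes had the opposite order. Cacna1c was at 87.8 ± 77.1 CPM in reassigned and 557 ± 208 CPM in the other neurons (SD, n = 7), Cacna1a at 132 ± 73.0 and 553 ± 240 CPM (SD, n = 7), and Cacnb2 at 18.1 ± 13.4 and 228 ± 56.8 CPM (SD, n = 7), and each was higher in the reassigned cells in 0 of 7 mice. The same count of 0 of 7 held for Cacna1b, Cacna1d, Cacna1e, Cacna2d3 and Cacng4. Others were higher in 5 of 7 mice: Cacng2 at 298 against 182 CPM, Cacng7 at 37.9 against 10.1 CPM and Cacna2d2 at 92.1 against 88.4 CPM. Of the 33 members with at least 50 UMIs in neurons, 12 (36.4%) were higher in the pooled reassigned cells and 21 lower, and of all 12993 such genes 4237 (32.6%) were higher. The 12 had a median span of 76.0 kb and the 21 a median of 116 kb, while the medians over all genes were 16.8 kb and 51.0 kb.

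RNA quality differed in the same cells. Mitochondrial transcripts made up 74232 ± 22600.1 CPM of the reassigned cells and 16066 ± 3334 CPM of the other neurons (SD, n = 7), higher in 7 of 7 mice. Malat1 was at 2731 ± 1923 against 18779 ± 7163 CPM (SD, n = 7) and Meg3 at 547 against 5658 CPM, both higher in 0 of 7 mice. Of the other neuronal markers, Snap25 (1272 against 551 CPM) and Stmn2 (330 against 120 CPM) were higher in 7 of 7 mice, Syt1 in 3 and Rbfox3 in 0. Of the astrocyte markers, Slc1a2 was at 1873 ± 798 against 703 ± 179 CPM (SD, n = 7) and higher in 6 of 7 mice, Aqp4 and Gja1 were higher in 4, Aldh1l1 in 1 and Slc1a3 in 0. The part of RNA quality, of RNA from other cells or of neuron type in the channel levels was not tested.

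**Figure D3:**
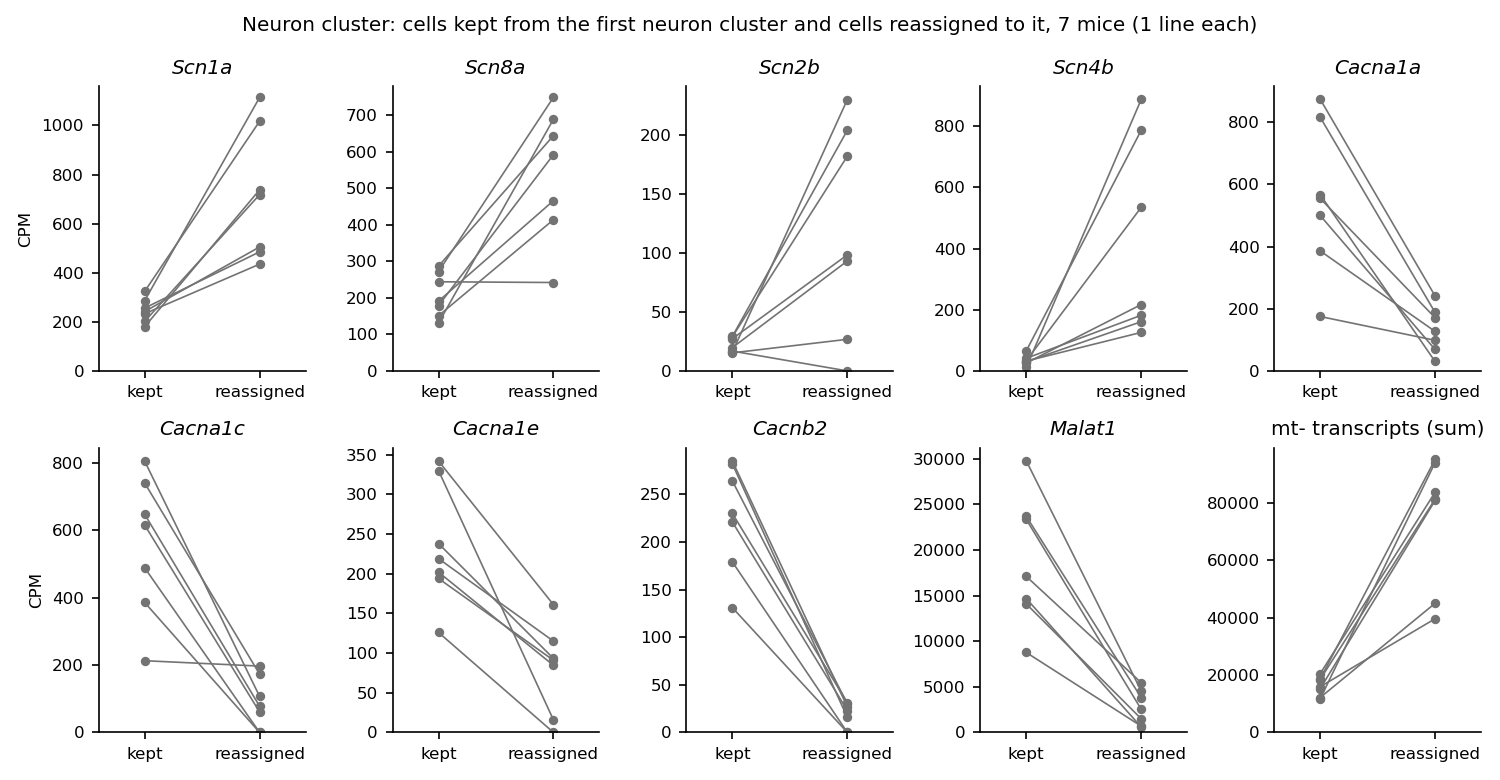
Level (CPM) in the neurons kept from the first neuron cluster and in the cells reassigned to it, in 7 mice (1 line each), for 8 channel genes, Malat1 and the summed mitochondrial (mt-) transcripts. Scn1a, Scn4b and the mt- transcripts are higher in the reassigned cells in 7 of 7 mice, and Cacna1a, Cacna1c, Cacna1e, Cacnb2 and Malat1 are lower in the reassigned cells in every mouse.

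The effect of injury was tested in 7 clusters on UMIs summed per mouse, with edgeR over all genes and Benjamini-Hochberg adjusted p at a threshold of 0.05. Each time was compared with the uninjured mice as the mean of the WT and cKO group means, and the 3 times share those uninjured mice. In Cluster 5, OPCs and Cluster 6, cKO uninjured replicate 1 had 7, 8 and 6 cells and did not enter. There cKO uninjured was 1 mouse, with as much weight as the 2 WT uninjured mice together. That mouse was also the whole cKO uninjured side when the injury effect was compared between genotypes. Of the 40 members, 29 passed the filter on low counts in at least 1 of the 7 clusters. The other 11 passed in none, among them Scn7a, Cacna1s and Cacna2d4. This gave 282 pairs of member and time, of which 1 was called (0.355%), against 120 of 170415 pairs over all genes (0.0704%). An unadjusted p under 0.05 was found for 34 of the 282 pairs and 11396 of the pairs over all genes. DESeq2 called 0 of the 282 pairs and 39 pairs over all genes. A difference of the injury effect between genotypes was called by edgeR for 0 of the same 282 pairs, against 0.00469% of the 170415 pairs over all genes. For that difference 14 of the 282 had an unadjusted p under 0.05, against 5705 over all genes. DESeq2 called it for 0 of the 282 pairs and for 1 pair over all genes.

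In neurons, Scn4b was lower at 14 d than in uninjured mice. The uninjured mice had 108 and 114 CPM (WT replicates 1 and 2) and 49.1 and 138 CPM (cKO replicates 1 and 2), from 17 to 28 UMIs each. At 14 d the values were 33.8 and 35 CPM in WT and 35.7 and 46.7 CPM in cKO, so that all 4 mice lay below all 4 uninjured mice. At 1 d the level was 264 CPM in the WT mouse, from 2 UMIs, and 42.8 and 45.2 CPM in cKO, and at 7 d it was 0 and 39.8 CPM in WT and 56.4 and 40.1 CPM in cKO. The mouse at 56.4 CPM at 7 d overlapped the uninjured range and the other 3 lay below it. The log2 fold change at 14 d was −1.48 (standard error 0.37, n = 15 mice in the fit, p = 3.43e-04, edgeR adjusted p = 0.0462). At 7 d it was also −1.48 (standard error 0.44, adjusted p = 0.303).

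The call at 14 d rested on the reassigned cells. In uninjured mice these were 37 of 394 neurons but held 55 of the 90 Scn4b UMIs (61.1%), at 986 CPM against 38.9 CPM in the other neurons. At 14 d they were 57 of 1109 neurons and held 39 of 186 UMIs (21.0%), at 252 against 31.4 CPM. Without the reassigned cells the log2 fold change at 14 d was −0.01 (standard error 0.59, adjusted p = 0.997), and the uninjured mice had 20.6, 11.2, 49.3 and 65.5 CPM, a range that took in all 4 values at 14 d (21.0, 32.2, 29.9 and 33.5 CPM). Snap25 in neurons had a log2 fold change of −0.85 at 14 d (standard error 0.40, adjusted p = 0.347), Malat1 a value of 0.63 (standard error 0.75) and Meg3 a value of −0.02 (standard error 0.68). Mitochondrial transcripts in neurons were at 85676, 27555, 7699 and 26779.7 CPM in uninjured mice and 19368, 13116, 15345 and 16535 CPM at 14 d. The motor neuron markers (3 genes, most abundant Slc5a7, 0 at 0) summed to 31.7 to 203 CPM in uninjured mice and 19.8 to 39.1 CPM at 14 d, and the 3 genes did not agree in the reassigned cells. Slc5a7 was at 372 ± 492 CPM in reassigned and 20.5 ± 11.5 CPM in other neurons (SD, n = 7) and higher in 5 of 7 mice, Chat at 12.1 and 8.85 CPM and higher in 1, and Isl1 at 0 and 2.26 CPM and higher in 0. The part of these in the fall of Scn4b was not tested.

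The sign of the Scn4b change at 14 d was the same in all 27 alternatives, but the call was kept in 7. The 27 include the fit without the reassigned cells, whose −0.01 (standard error 0.59) gives no direction. The adjusted p was 0.865 with DESeq2, 0.0662 without a filter on low counts, 0.533 for the contrast of the WT groups alone in the fit of all 15 mice, 0.0783 with at least 30 cells per mouse, 0.439 with the conditions of the cell names, 0.0688 without the cells that share a barcode and 0.0964 without the 4 shallow libraries. In that order the log2 fold changes were −1.70, −1.32, −1.81, −1.52, −1.33, −1.49 and −1.50. The fits of 1 replicate pooled the genotypes at each time, since they had 1 mouse per group. In replicate 1 mice alone the log2 fold change was −0.70 (adjusted p = 0.996), and in replicate 2 mice alone −1.95 (adjusted p = 4.19e-05, the smallest of a range up to 0.997). With the replicate as a block the adjusted p was 0.0230. Leaving out 1 mouse ended the call for 11 of the 15. These were WT uninjured replicate 2 (0.141), cKO uninjured replicate 2 (0.336), WT 1 d replicate 1 (0.0783), WT 7 d replicates 1 (0.0627) and 2 (0.0667), and cKO 7 d replicates 1 (0.0576) and 2 (0.0771). They also were WT 14 d replicates 1 (0.127) and 2 (0.351) and cKO 14 d replicates 1 (0.143) and 2 (0.171). Without cKO uninjured replicate 2 the log2 fold change was −0.87.

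**Figure D4:**
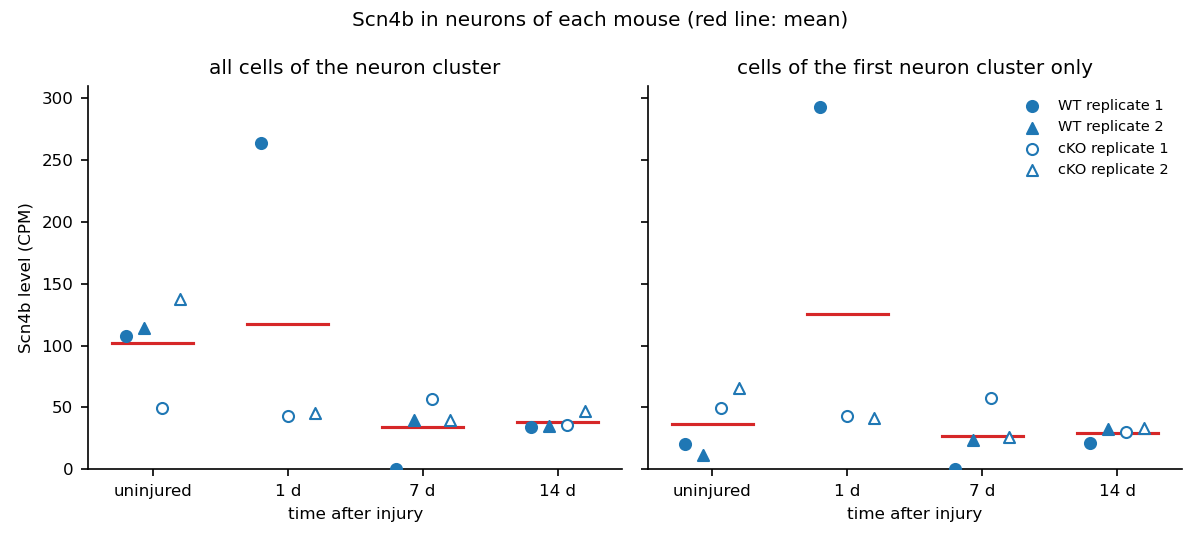
Level of Scn4b (CPM) in the neurons of each mouse by time after injury, with all cells of the neuron cluster (left) and with the cells of the first neuron cluster only (right); symbols give genotype and replicate, and the red line is the mean. On the left the 4 mice at 14 d (33.8 to 46.7 CPM) lie below the 4 uninjured mice (49.1 to 138 CPM), and on the right they lie within their range (11.2 to 65.5 CPM).

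Of the 27 members tested in neurons, Scn4b at 14 d was the single one called, against 0.781% of the 10238 genes tested. At 7 d edgeR called 0 of the 27 against 0.00977% of genes, with 7 members, and 867 of all 10238 genes, at an unadjusted p under 0.05 and 0 members called by DESeq2. At 1 d it called 0 against 0% of genes, with 3 members, and 503 of all genes, at an unadjusted p under 0.05 and 0 members called by DESeq2. The median log2 fold change of the 27 was 0.24 at 14 d, where the median over all genes tested was 0.04, and 6 members and 1338 of all genes had an unadjusted p under 0.05. At 7 d the medians were 0.26 and −0.03. At 1 d, where the WT side is the 1 mouse with 18 neurons, they were −1.23 and −2.98.

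Cacna1h, Cacna1g and Cacng3 were among the members with an unadjusted p under 0.05 at 7 d and at 14 d, and none of them was called. Cacna1h was at 14.7, 9.89, 17.3 and 24.6 CPM in the uninjured mice, at 89.2, 54.8, 56.4 and 43.6 CPM at 7 d and at 47.4, 34.5, 33.7 and 43.2 CPM at 14 d. Each mouse at 7 d and 14 d lay above each uninjured mouse, with 2 to 6 UMIs in an uninjured mouse. Counts were as low in cKO 7 d replicate 1, where 56.4 CPM is 2 UMIs, and the 89.2 CPM of WT 7 d replicate 1 also came from a shallow library. The log2 fold change was 1.62 at 7 d (standard error 0.49, adjusted p = 0.303) and 1.28 at 14 d (standard error 0.45, adjusted p = 0.189), neither of which passed. Cacna1g had log2 fold changes of 1.01 (standard error 0.41, adjusted p = 0.478) and 1.10 (standard error 0.37, adjusted p = 0.172) at 7 d and 14 d. Cacng3 had 1.47 (standard error 0.53, adjusted p = 0.422) and 1.4 (standard error 0.48, adjusted p = 0.176), with uninjured mice at 0 to 51.9 CPM and 14 d mice at 37.5 to 47.4 CPM, which overlap. The main neuronal pores had smaller values at 14 d, with −0.16 for Scn1a (standard error 0.32), −0.16 for Scn8a (standard error 0.31), 0.28 for Scn2a (standard error 0.39), 0.51 for Cacna1a (standard error 0.40) and 0.38 for Cacna1c (standard error 0.37).

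In replicate 2 mice alone, with the genotypes pooled at each time, 13 pairs of member and time were called, 9 of them at 14 d. Among these were higher levels of Cacna1a, Cacna1c, Cacna2d2, Cacna2d3, Cacnb4 and Cacng3 and a lower level of Scn4b, in a fit of 7 mice that called 1911 gene and time pairs in all. The 13 also take in Cacna2d4 at 14 d, which did not pass the filter in the fit of all mice and had 0 UMIs in both uninjured replicate 2 mice. A call of Scn4b at 1 d is among them too. At that time the fit held a single mouse, cKO 1 d replicate 2, so that call is not read. In replicate 1 mice alone, which include the 4 shallow libraries, 0 members were called and 33 gene and time pairs in all. The difference between the batches was not tested.

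In OPCs, 14 members were tested, and edgeR called 0 at 1 d, 7 d and 14 d, against 0%, 0% and 0% of 5417 genes. At those times 0, 1 and 1 members, and 268, 347 and 286 of all genes, had an unadjusted p under 0.05, and DESeq2 called 0 members. The member was Scn8a, with 84.0, 41.4 and 21.7 CPM in the uninjured mice, 177, 208, 69.4 and 187 CPM at 7 d and 139, 178, 139 and 167 CPM at 14 d. All 4 mice at 14 d lay above the 3 uninjured mice, and at 7 d 1 mouse overlapped them. The uninjured mice held 14 UMIs of Scn8a in all. The value of 21.7 CPM is the single cKO uninjured mouse, with 18 cells, where 1 UMI comes to that level. In the fold changes it weighs as much as the 2 WT uninjured mice together. The log2 fold changes were 1.94 (standard error 0.71, adjusted p = 0.750) and 1.91 (standard error 0.70, adjusted p = 0.852). Neuronal markers in OPCs (5 genes) summed to 269, 304 and 626 CPM (lowest, median and highest) in uninjured mice and 361, 709 and 1855 CPM at 14 d, and their part in the Scn8a values was not tested. Cacng4, the gene that set OPCs apart, had 642, 803 and 932 CPM in uninjured mice and 799, 821 and 911 CPM at 14 d, which overlap. Over the 14 members the median log2 fold changes were −0.07, 0.12 and 0.13, and over all genes −0.20, 0.10 and 0.16.

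In Cluster 7 astrocytes, 12 members were tested. At 1 d, 7 d and 14 d edgeR called 0 of them, against 0.188%, 0.0377% and 0.188% of 7966 genes, with 0, 1 and 3 members, and 517, 590 and 618 of all genes, at an unadjusted p under 0.05 and 0 members called by DESeq2. Cacna1c had 10.2, 65.2, 13 and 16 CPM in uninjured mice, 64.4, 72.1 and 65.3 CPM at 1 d, 0, 61.7, 112 and 72.3 CPM at 7 d and 53.7, 73.7, 34.1 and 68.2 CPM at 14 d. WT uninjured replicate 2 lay within the injured range and the other 3 uninjured mice lay below all injured mice but the 1 at 0 CPM. The log2 fold change was 1.49 at 7 d (standard error 0.53, adjusted p = 0.345) and 1.47 at 14 d (standard error 0.49, adjusted p = 0.338). Without WT uninjured replicate 2 it was called at 14 d, among 47 gene and time pairs called over all genes in that fit. For the 12 members the medians of the log2 fold change were 0.04, 0.37 and 0.24, and they were −0.30, 0.00 and 0.07 over all genes.

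In Cluster 5 astrocytes, edgeR called 0 of 15 members at 1 d, 7 d and 14 d, against 0.0252%, 0% and 0% of 7929 genes, with 2, 0 and 1 members, and 469, 178 and 166 of all genes, at an unadjusted p under 0.05 and 0 members called by DESeq2. Cacnb2 had 8.31, 18.7 and 77.1 CPM (lowest, median and highest) in uninjured mice and 64.5, 285 and 331 CPM at 1 d, a log2 fold change of 2.11 (standard error 0.76, adjusted p = 0.742). These Cacnb2 ranges overlap, and the 1 d values came from 44 UMIs in all, with the shallow replicate 1 libraries of both genotypes among them. The median log2 fold changes were −1.62, 0.02 and 0.45 for the members and −0.43, −0.14 and 0.04 over all genes.

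In pericytes, 0 of 7 members were called by edgeR at 1 d, 7 d and 14 d, against 0%, 0% and 0% of 6876 genes, with 1, 0 and 0 members, and 299, 277 and 301 of all genes, at an unadjusted p under 0.05 and 0 members called by DESeq2. Cacna1c, the pore that was highest there, had 661, 944 and 1289 CPM (lowest, median and highest) in uninjured mice, 1301, 1480 and 1651 CPM at 7 d and 759, 1291 and 1892 CPM at 14 d. The mice at 7 d lay above the uninjured mice, and those at 14 d overlapped them. The log2 fold changes were 0.52 at 7 d (standard error 0.37, adjusted p = 0.996) and 0.41 at 14 d (standard error 0.36, adjusted p = 0.950). Medians of the log2 fold change were −0.18, 0.22 and 0.07 for the members and −0.11, 0.02 and 0.07 over all genes.

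In endothelial cells, 0 of 14 members were called by edgeR at 1 d, 7 d and 14 d, against 0.00910%, 0% and 0% of 10985 genes, with 1, 2 and 1 members, and 570, 981 and 830 of all genes, at an unadjusted p under 0.05 and 0 members called by DESeq2. Cacna1d had the smallest p, with 13.6, 15.6 and 23.0 CPM (lowest, median and highest) in uninjured mice and 0, 5.60 and 14.9 CPM at 7 d, which overlap, and a log2 fold change of −2.07 (standard error 0.58, adjusted p = 0.546). The median log2 fold changes were −0.60, −0.76 and −0.46 for the members and −0.09, −0.04 and −0.01 over all genes.

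In Cluster 6 microglia, 0 of 5 members were called by edgeR at 1 d, 7 d and 14 d, against 0.0406%, 0% and 0% of 7394 genes, with 1, 1 and 2 members, and 899, 549 and 543 of all genes, at an unadjusted p under 0.05 and 0 members called by DESeq2. Cacna1d had 310, 170 and 31.6 CPM in the uninjured mice, 420, 351 and 215 CPM at 1 d, 372, 342, 467 and 311 CPM at 7 d and 216, 329, 317 and 330 CPM at 14 d. The mice at 7 d lay above the uninjured mice, whose highest value, 310 CPM, lay within the range at 1 d and 14 d. The value of 31.6 CPM is the single cKO uninjured mouse, with 22 cells, where 1 UMI came to 15.8 CPM. In the fold changes that mouse weighs as much as the 2 WT uninjured mice together. The plain means over mice were 171 CPM uninjured and 329, 373 and 298 CPM at 1 d, 7 d and 14 d. The log2 fold changes were 1.81 (standard error 0.50, adjusted p = 0.200), 2.04 (standard error 0.45, adjusted p = 0.262) and 1.71 (standard error 0.46, adjusted p = 0.608). Without a filter on low counts 2 pairs were called, Cacna1d at 7 d and Cacna1a at 14 d, among 102 gene and time pairs over all genes. Cacna1a at 14 d was at 66.5 and 738 CPM in WT and 89.6 and 88.7 CPM in cKO, so that 1 mouse lay far above the other 3, and it was at 12.9, 28.4 and 47.4 CPM in the uninjured mice. The neuronal marker list (5 genes) summed to 31.6, 66.2 and 90.5 CPM (lowest, median and highest) in uninjured Cluster 6 and 53.6, 85.3 and 192 CPM at 7 d. Its part in the Cacna1d values was not tested. The median log2 fold changes were 1.34, 1.26 and 1.71 for the 5 members and −0.06, 0.14 and 0.15 over all genes. All of these rest on the same uninjured mice, with 1 cKO mouse among them.

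The study asks what the loss of Ryk in astrocytes does after injury, so cKO and WT were compared over the 3 times after injury in neurons and the main astrocyte clusters. In neurons edgeR called 0 of 27 members, against 0% of genes, with 2 members, and 388 of all genes, at an unadjusted p under 0.05 and 0 members called by DESeq2. Those were Scn8a, with a log2 difference of 3.24 (standard error 1.30, adjusted p = 0.766), and Cacna2d3, with 1.07 (standard error 0.50, adjusted p = 0.766). Scn8a was at 0 CPM in the single WT mouse at 1 d, which enters the Scn8a difference. In Cluster 5 it called 0 of 15, against 0% of genes, and in Cluster 7 0 of 12, against 0.0126% of genes, with 0 and 0 members, and 172 and 395 of all genes, at an unadjusted p under 0.05 and 0 members called by DESeq2. The median log2 differences of the members were 0.83 in neurons, 1.33 in Cluster 5 and 0.16 in Cluster 7, and those of all genes were 2.01, 0.31 and 0.18. The neuronal medians include 1 d, where WT was the 1 mouse with 18 neurons, and the median standard error over all genes in neurons was 1.96, so that no shift in cKO is read from them. WT at 1 d was 1 mouse in Cluster 5 and Cluster 7 too. The median standard error of the 15 members in Cluster 5 was 1.23, so that no shift is read there either.

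Within the neuron cluster, cells were also divided by transmitter genes, none of which is a channel subunit. There were 628 cells with a UMI of Gad1, Gad2, Slc32a1 or Slc6a5 and none of Slc17a6 (inhibitory marker cells), 168 with the reverse (excitatory marker cells), 137 with both kinds and 1553 with neither. The inhibitory side thus has 4 marker genes and the excitatory side 1, and the median UMIs per cell were 3538 in inhibitory marker cells, 2890.5 in excitatory marker cells and 1177 in cells with neither. The same rule took in 25.3% and 6.76% of the neuron cluster, but also 13.8% and 4.27% of Cluster 5 astrocytes and 6.12% and 1.64% of all cells outside the neuron cluster. A UMI of these genes therefore does not settle the class of a cell, and what follows compares marker cells and not neuron classes. The reassigned cells, 6.4% of neurons, held 23.3% of the Slc17a6 and 35.5% of the Slc32a1 UMIs of the neuron cluster. For Gad1, Gad2 and Slc6a5 their share was 10.8% to 14.0%. The part of the reassigned cells in the comparison of marker cells was not tested. In 8 mice with at least 10 cells of each, edgeR with the mouse as a block called 0 of 15 members, against 0% of 1913 genes, with 2 members, and 121 of all genes, at an unadjusted p under 0.05 and 0 members called by DESeq2. The median log2 difference was −0.09 for the members and 0.00 over all genes.

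Cacna2d1 had the smallest p of the 15, and was higher in excitatory marker cells in 7 of 8 mice. Inhibitory and excitatory marker cells had 54.8 and 111 CPM in cKO uninjured replicate 2, 142 and 368 CPM in cKO 1 d replicate 2, 89.3 and 929 CPM in WT 7 d replicate 2, and 122 and 166 CPM in cKO 7 d replicate 2. At 14 d they had 222 and 63.3 CPM in WT replicate 1, 116 and 203 CPM in WT replicate 2, 125 and 431 CPM in cKO replicate 1, and 109 and 200 CPM in cKO replicate 2. WT 14 d replicate 1 was thus the mouse with the reverse order. The log2 difference was −1.23 (standard error 0.27, edgeR adjusted p = 0.0515), which did not pass. Of 15 alternatives 2 passed, without WT 14 d replicate 1 (adjusted p = 0.0440) and in replicate 2 mice alone (0.0376), in a range from 0.0376 to 1.0. Without WT 7 d replicate 2, the mouse at 929 CPM, the log2 difference was −0.94 (adjusted p = 0.157), and in replicate 1 mice alone it was −0.62 (adjusted p = 1.0). With DESeq2 the adjusted p was 0.136. Cacna2d3 was higher in inhibitory marker cells in 7 of 8 mice, at 417 ± 140 against 259 ± 122 CPM (SD, n = 8), with a log2 difference of 0.65 (standard error 0.22, edgeR adjusted p = 0.547). Malat1 was at 20237 and 18153 CPM and mitochondrial transcripts at 19115 and 20877 CPM in inhibitory and excitatory marker cells, higher in inhibitory marker cells in 5 and 4 of 8 mice.

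The partners of the channels were read from 4 lists. The sodium channel partners, intracellular fibroblast growth factors and the scaffold of the axon initial segment, were led in neurons by Fgf14 (1615 ± 946 CPM, SD, n = 15), Ank3 (1350 ± 444 CPM) and Fgf12 (671 ± 332 CPM). The calcium channel regulators were led by Rims2, a scaffold of presynaptic release sites (463 ± 174 CPM, SD, n = 15), Rimbp2 (131 ± 49.1 CPM) and the calcium sensor Cabp1 (125 ± 74.9 CPM). Of the sodium leak channel complex, 4 of 5 genes were in the matrix, led by Fam155a (1294 ± 494 CPM, SD, n = 15), Unc80 (404 ± 134 CPM) and Unc79 (231 ± 124 CPM). The intracellular calcium release channels were led by Ryr2 (589 ± 241 CPM, SD, n = 15), Ryr3 (378 ± 145 CPM) and Itpr2 (137 ± 65.9 CPM). With edgeR, 0 genes of these lists were called in any of the comparisons. At 14 d in neurons 1 of 7 sodium channel partners, 2 of 7 calcium channel regulators, 0 of 4 leak channel genes and 2 of 6 release channels tested had an unadjusted p under 0.05, against 1338 of all 10238 genes, and DESeq2 called 0 of the lists. Their median log2 fold changes were 0.06, 0.44, 0.18 and 0.59, against 0.04 over all genes.

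These values carry limits of the design. Each group had 2 mice, but WT at 1 d had 1, as had cKO uninjured in Cluster 5, OPCs and Cluster 6. The replicate number is also the batch, so a difference between replicates cannot be told from a difference between batches. Reads from the 3′ end do not tell splice forms apart, and RNA levels are not channel numbers at the membrane. Clusters are those of the authors, doublets were not called here, and RNA from other cells in a droplet was not removed. That bears on low levels of neuronal genes in glia, among others.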

How the data were processed

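The deposited files held UMI counts per gene and cell, as integers, and a cell table in which the authors gave each cell's mouse, cluster, first cluster and batch and the percent of its counts from mitochondrial genes. The cell table has 14 columns, and 7 of them were not used. The authors made the libraries with the 10x 3′ chemistry and analysed them in R 4.1.2. Cells, clusters and cluster names were taken as deposited, and doublets were not called here.

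Counts were summed per mouse and cluster, and levels are CPM of that sum in mice with at least 10 cells. Library depth was 536263 to 9008729 UMIs in 15 mice, and the neurons of a mouse held 7570 to 2145779 UMIs, so that 2 UMIs of Scn4b came to 264 CPM in the shallowest mouse. Injury and genotype were tested with edgeR 4.0.16 (quasi-likelihood, TMM scaling, the tool's filter on low counts) in R 4.3.3, with a group for each genotype and time, over all genes, and again with DESeq2 1.42.0. Inhibitory and excitatory marker cells were tested with the mouse as a block. Adjusted p is Benjamini-Hochberg over the genes of a comparison, at a threshold of 0.05. The procedure was tested on simulated data. Pairing by replicate number was checked by correlating, between groups, the log2 difference of replicates 1 and 2 over genes. The median correlation was 0.0202 in neurons (7 of 21 pairs over 0.1) and 0.0156 to 0.0626 over the 7 clusters, and the highest single value was 0.520, in endothelial cells (10 of 21 pairs over 0.1). Replicates were not paired, and a replicate block was run as an alternative.

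Members and lists were chosen with earlier results of these data known. Named were, in each role, the 3 members with the highest mean in neurons, every member highest in another cluster with at least 20 UMIs there, every member with adjusted p under 0.05 and, of the 4 partner lists, called genes or otherwise the 3 with the highest mean in neurons. Other members named, and the marker genes Snap25, Stmn2, Syt1, Rbfox3, Slc5a7 and Slc1a2, were chosen after their values were seen. Counts cover all members, but not every member that the rule names is described or drawn.

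Alternatives were pooled UMIs, cells thinned to 1000 UMIs, at least 30 cells, DESeq2, no filter, total counts without TMM, a replicate block, contrasts of the WT groups only, the conditions in the cell names, each replicate alone (genotypes pooled at each time), cells of another first cluster left out, and each mouse left out. Python 3.11.15 with pandas 2.3.3, numpy 2.4.6, scipy 1.17.1 and matplotlib 3.10.9 was used for levels and plots. Gene positions came from GENCODE vM21 and start windows from RefSeq. No start window was found for 10 members, among them Cacna1a and Cacng4.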

Additional observations from a re-analysis of the deposited data

Results flagged for a closer look

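In 10 groups of 4 to 10 mice, 3 values lay far from the others of their group. Chance gives such a value in about 1 in 20 groups. Cacnb3 in fibroblasts was at 184 CPM in WT 1 d replicate 1, a shallow library, against 0 to 46.0 CPM in the other mice (n = 9). Scn4b in neurons at 14 d was at 46.7 CPM in cKO replicate 2, against 33.8 to 35.7 CPM in the other mice (n = 4), and so lay nearest to the uninjured mice. Cacna2d1 in excitatory marker cells was at 929 CPM in WT 7 d replicate 2, from 43 UMIs in 12 cells, against 63.3 to 431 CPM in the other mice (n = 8). The cause was not tested.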

How the results depend on the processing

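Over 265 pairs of a count of called members and an alternative, 233 were the same as reported and 32 moved. The numbers called between genotypes (0 in 3 clusters) did not move, and the number of members highest in neurons, 21, ran from 16 to 22 over 5 alternatives.

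In neurons the number called after injury, 1, was 0 with DESeq2, without a filter on low counts, for contrasts of the WT groups only, with at least 30 cells, with the conditions of the cell names, in replicate 1 mice alone and without the cells of another first cluster. It was also 0 without the cells that share a barcode and without the 4 shallow libraries, and these 2 alternatives were chosen after seeing the data. With the replicate block it was 1. Leaving out each mouse gave 0 to 1.

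With replicate 2 mice alone the numbers were 13 in neurons, 3 in OPCs, 2 in Cluster 5, 1 in pericytes, 8 in endothelial cells, 3 in Cluster 6 and 1 between inhibitory and excitatory marker cells. Over all genes the same fits called 1911, 608, 1305, 492, 5422, 580 and 3. With replicate 1 mice alone the numbers also moved in OPCs and Cluster 5. There the uninjured side was a single mouse, WT uninjured replicate 1, so those calls are not read. Scn1a in OPCs was lower at 14 d in that fit, whereas it was higher at 7 d with replicate 2 mice alone. In the replicate 2 fits of injury, 1 d was a single mouse, cKO 1 d replicate 2. Their counts include calls at 1 d of Scn4b in neurons and Cacnb2 in Cluster 5, which are not read. Without a filter on low counts Cluster 6 had 2, against 102 over all genes. Leaving out each mouse gave 0 to 1 in Cluster 7 and 0 to 1 between inhibitory and excitatory marker cells. The cause was not tested.

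A minimum of 2 UMIs of the markers for inhibitory and excitatory marker cells was not run, because it left 1 mouse with 10 cells of each kind. The 4 shallow libraries limit what can be said of 1 d and 7 d.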
